A study of Rattus norvegicus with 34 samples.

Results

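The genes described here encode the pore-forming and accessory subunits of voltage-gated potassium, calcium and sodium channels together with the potassium channel families whose symbols share the Kcn stem. A probe was taken when its current symbol began with Kcn, Cacna, Cacnb or Cacng, or was Scn followed by a number and a or b. By that rule 124 of 22226 probes were members, and they stood for 121 genes among the 21952 features tested, which were 21850 named genes and 102 probes without a gene name. The platform annotation named 113 of the 124 probes, and sequence accessions or the probe descriptions named the other 11. Kcna10, Kcnc2 and Kcnh8 each had 2 probes, which were averaged. By symbol the 121 genes fell into 38 voltage-gated potassium pore and silent subunits, 11 of their accessory subunits, 11 calcium- and sodium-activated potassium channel genes, 14 inward rectifiers, 10 tandem-pore potassium channels, 7 calcium pore subunits, 4 alpha2-delta subunits, 4 calcium beta subunits, 8 gamma subunits and related AMPA receptor partners, 9 sodium pore subunits, 4 sodium beta subunits and Kcnrg, a regulator of potassium channels. The symbol rule therefore also takes inward rectifiers and tandem-pore channels, which are not gated by voltage in the manner of the others.

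Voltage-gated channels are built from a pore-forming subunit that senses membrane potential and from accessory subunits that set how much channel reaches the membrane and how it opens and closes. In neurons the sodium channels start the action potential, potassium channels end it and set the resting potential, and calcium channels couple it to transmitter release and gene expression. Many of these genes are expressed mainly in neurons, while some, such as the inward rectifier Kcnj10 and the sodium-sensing channel Scn7a, are known for expression in glia.

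The study profiled primary rat cortical neurons on Illumina RatRef-12 bead arrays after mild or severe neurotrauma in vitro. Embryonic Wistar cortices were dissociated, tissue of 8 to 10 pups was pooled, and the cultures were used at day 21; the labels give the embryos as gestation day 15 to 16 in one field and embryonic day 17 in another. Axon bundles were either cut with a knife or stretched by a puff of gas, and the labels do not say which of these is the mild injury. Each time point drew on 12 or more wells, and the cultures came from 3 dams. The 34 arrays comprised 6 uninjured controls, 15 of mild injury (triplicates at 0, 8, 15, 24 and 48 h) and 13 of severe injury (triplicates at 8, 15, 24 and 48 h and a single array at 0 h). Replicate numbers are not tied to the cultures in the labels, so p-values here measure the spread between arrays, which may in part be technical.

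Each deposited value was a ratio without a unit, and all levels below are log2 of that ratio. For 18 arrays (the 6 controls and mild 0, 8, 15 and 24 h) the ratio was to the mean of control 1 to 3. For the other 16 (the arrays labelled mild 48 h and all severe arrays) it was to the mean of the 3 arrays labelled mild 48 h. In these ratios severe injury was therefore set against that group and not directly against controls. A separate signal table, which has no such divisor, entered no comparison. The order of that table put the arrays labelled mild 48 h next to control 1 to 3 and those labelled control 4 to 6 ahead of mild 0 h. The labels of 18 arrays are therefore uncertain: read in table order, the mild 48 h label would belong to arrays now called mild 24 h, the arrays called mild 0, 8 and 15 h would each be 1 time point later, control 4 to 6 would take the mild 0 h label, and the group called mild 48 h would be uninjured controls. GEO's labels are used throughout. Ratios carry no level, so detection of a channel gene and the identity of the cultured cells could not be read from them. The signals behind the ratios had no background removed, with column minima of 24.9 to 31.1 and medians of 40.5 to 51.9, so the fold of a dim probe is understated by an amount not known here.

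Severe and mild 48 h arrays also differed in markers of other cell types. Calls were made on the average over severe 8 to 48 h at a limma adjusted p under 0.05. Higher were 7 of 9 measured astrocyte markers, 7 of 13 oligodendrocyte lineage markers and 5 of 5 ciliated ependymal markers. Lower were 6 of 8 fibroblast and mural markers, 1 of 3 endothelial markers and 2 of 15 neuron markers (Slc17a6 and Tubb3). Of 5 microglia markers 0 were called. Of all features 14.4% were called in that comparison, 5.73% higher and 8.71% lower. Among the neuron markers not called, Nefh (0.22), Gad2 (0.19), Map2 (0.15) and Rbfox3 (0.05) had positive differences and the others had negative ones. The array medians of these lists did not overlap with the mild 48 h arrays for astrocyte markers (0.75 to 1.45 in the 12 severe arrays, -0.05 to 0.01 in mild 48 h), ependymal markers (1.90 to 3.99 against -0.16 to 0.11), oligodendrocyte lineage markers (0.43 to 1.93 against -0.02 to 0.03) or fibroblast and mural markers (-5.28 to -2.70 against -0.06 to 0.07). The single severe 0 h array already stood at 1.38, 3.41, 1.32 and -3.94 for those 4 lists. Endothelial medians also did not overlap, though the gap was small (-0.242 to -0.0343 in severe 8 to 48 h, -0.0312 to 0.0687 in mild 48 h). In bulk RNA, fewer cells of a type and less RNA per cell cannot be told apart, and the part of these lists in the channel results was not tested.

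The promoters of 4 genes are printed: those of the sodium channel genes with the lowest adjusted p after severe injury and that of Cacng3, the only one with a match to the REST motif among the 8 of 11 called genes that had a promoter window. Each is the RefSeq window of 300 bases, 250 before and 50 after the annotated start on build GRCr8, written 5′ to 3′ on the gene's strand with matches to the searched motifs in capitals. The windows are chr3:71846235-71846534, minus strand for Scn7a, chr8:128340249-128340548, minus strand for Scn10a, chr8:54343623-54343922, plus strand for Scn4b and chr1:186632312-186632611, plus strand for Cacng3.
Scn7a: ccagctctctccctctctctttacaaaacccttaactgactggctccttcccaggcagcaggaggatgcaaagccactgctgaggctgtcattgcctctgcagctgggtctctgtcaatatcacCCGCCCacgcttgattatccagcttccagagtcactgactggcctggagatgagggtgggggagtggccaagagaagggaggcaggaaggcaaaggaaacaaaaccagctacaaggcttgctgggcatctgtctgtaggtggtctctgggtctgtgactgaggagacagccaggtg
Scn10a: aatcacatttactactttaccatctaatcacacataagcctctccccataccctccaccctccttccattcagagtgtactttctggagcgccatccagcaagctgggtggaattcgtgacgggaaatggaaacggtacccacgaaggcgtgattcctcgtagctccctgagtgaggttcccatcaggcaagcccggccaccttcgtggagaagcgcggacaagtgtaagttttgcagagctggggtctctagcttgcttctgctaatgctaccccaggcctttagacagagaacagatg
Scn4b: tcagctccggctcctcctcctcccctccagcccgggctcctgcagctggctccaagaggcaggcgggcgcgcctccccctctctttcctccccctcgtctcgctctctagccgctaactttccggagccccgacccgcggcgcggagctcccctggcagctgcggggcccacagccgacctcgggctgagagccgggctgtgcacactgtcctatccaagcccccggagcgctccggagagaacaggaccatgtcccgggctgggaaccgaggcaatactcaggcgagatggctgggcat
Cacng3: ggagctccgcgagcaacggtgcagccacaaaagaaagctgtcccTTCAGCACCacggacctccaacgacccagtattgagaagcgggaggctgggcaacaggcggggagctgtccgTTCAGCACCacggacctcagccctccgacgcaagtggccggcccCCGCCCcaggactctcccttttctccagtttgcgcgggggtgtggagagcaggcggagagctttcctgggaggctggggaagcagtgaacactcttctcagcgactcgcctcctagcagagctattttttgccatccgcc
The motifs searched on both strands were the cyclic AMP response element TGACGTCA, the AP-1 site TGANTCA, the GC box GGGCGG, the E-box CACGTG, the TATA element TATAAA and TTCAGCACC, the left arm of the element bound by REST, a repressor of neuronal genes. The capitals in Scn7a and the single run CCGCCC in Cacng3 are GC boxes read on the opposite strand, and no searched motif matched in Scn10a or Scn4b. Cacng3 held the REST arm 2 times, at bases 45 and 117 of the window. Of the 121 member genes 81 had a RefSeq promoter window. The GC box was in 40 of them (49.4%) against 34.9% of all 27457 windows, TATAAA in 3.70% against 14.3%, AP-1 in 3.70% against 7.33%, the E-box in 3.70% against 6.65%, the cyclic AMP element in 0 against 1.91%, and the REST arm in 2 (2.47%, Cacng3 and Kcnh6) against 0.379%. These are matches of letters and not evidence of binding.

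Averaged over 8 to 48 h after severe injury, 11 of the 121 channel genes differed from the arrays labelled mild 48 h at a limma adjusted p under 0.05, 6 higher and 5 lower. Among all features 14.4% were called in that comparison (5.73% higher and 8.71% lower), and the members' share was 9.09%. The median log2 difference was 0.02 over the members and 0.01 over all features. The higher genes were the sodium pore subunits Scn7a and Scn10a, the sodium beta subunit Scn4b, the calcium-activated Kcnn2, the sodium-activated Kcnt1 and the inward rectifier Kcnj12. The lower ones were the calcium pore subunits Cacna1g and Cacna1c, the AMPA receptor partner Cacng3, the tandem-pore Kcnk12 and the sodium-activated Kcnt2. None of the 38 voltage-gated potassium pore and silent subunits and none of their 11 accessory subunits was called.

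**Figure D1:**
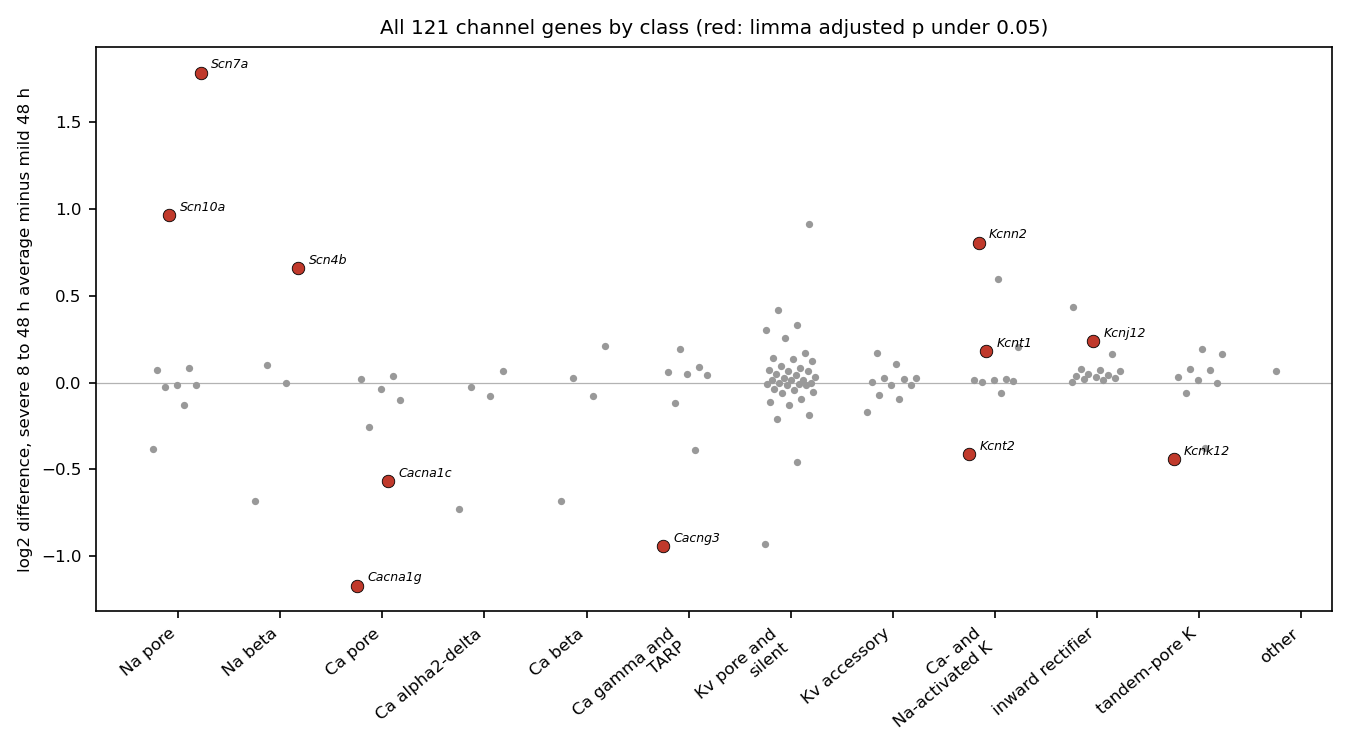
Each point is 1 of the 121 channel genes; the y axis is the log2 difference of the severe 8 to 48 h average from the mild 48 h group, and the x axis groups genes by class. Red points are the 11 genes called by limma, from Scn7a at 1.79 to Cacna1g at -1.17; horizontal position within a class only separates the points.

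The sodium pore genes held the largest positive difference from mild 48 h. Scn7a encodes a channel relative known as a sensor of sodium concentration rather than a carrier of action potentials. Its log2 ratios were 0.08, -0.11 and 0.03 in the mild 48 h arrays, 1.72, 1.48 and 2.09 at severe 8 h, 2.06, 1.79 and 2.13 at 15 h, 1.57, 1.40 and 1.89 at 24 h, and 1.82, 1.18 and 2.26 at 48 h. All 12 severe arrays lay above all mild 48 h arrays, and the severe 0 h array stood at 2.00, inside the range of the later times. The average difference was 1.79 ± 0.19 (SE), a 3.45-fold higher ratio, with a limma adjusted p of 3.17e-05, and each of the 4 times was called, with differences of 1.62 to 2.00. Pairs of severe and mild 48 h arrays on the same chip differed by 1.69, 1.98 and 1.70. Across the other divisor's 18 arrays, controls and mild 0 to 24 h, the same probe stayed between -0.25 and 0.32, and none of its 4 mild differences was called.

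Scn10a encodes the tetrodotoxin-resistant sodium channel known from pain-sensing peripheral neurons. Its log2 ratios were 0.15, 0.02 and -0.19 in mild 48 h, 0.68, 0.90 and 1.12 at severe 8 h, 1.06, 1.01 and 1.03 at 15 h, 1.51, 0.53 and 1.24 at 24 h, and 0.68, 0.46 and 1.30 at 48 h. Every severe array was above every mild 48 h array, although the arrays within 24 h and within 48 h lay far apart. The severe 0 h array read 1.54. The average difference was 0.97 ± 0.19 (SE; 1.95-fold, limma adjusted p 0.00399), and all 4 times were called with adjusted p of 0.0122 to 0.0494. Under quantile normalization the average difference of 0.89 was not called (adjusted p 0.109). Of 13 alternatives, 7 lost the call at 8 h, 4 at 15 h, 5 at 24 h and 8 at 48 h.

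Scn4b encodes the beta-4 subunit, which pairs with the sodium channel pore and is linked to the resurgent current that lets neurons fire again quickly. Its mild 48 h values were 0.00, -0.05 and 0.05. At severe 8 h it read 0.41, 0.66 and 0.76, at 15 h 0.85, 0.90 and 0.81, at 24 h 0.25, 0.48 and 0.59, and at 48 h 0.74, 0.75 and 0.73. No severe array overlapped with mild 48 h, the 48 h arrays lay close together, and the 24 h arrays had the lowest mean of the 4 times. The average difference was 0.66 ± 0.07 (SE; 1.58-fold, limma adjusted p 5.8e-05), and the severe 0 h array read 0.48. Scn4b had the smallest unadjusted p of the members in all 3 tests for change over time and passed none, with limma adjusted p of 0.0569 over mild 0 to 24 h, 0.983 over severe 8 to 48 h, and 0.228 for the difference in change between severe and mild over 8, 15 and 24 h. After mild injury its means ± SD (n = 3 each) were -0.08 ± 0.11 at 0 h, -0.16 ± 0.13 at 8 h, -0.18 ± 0.10 at 15 h and 0.32 ± 0.13 at 24 h.

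The other 7 sodium pore genes and 3 beta genes were not called. Scn2a, the main pore subunit of excitatory cortical axons, differed by -0.38 ± 0.41 (SE) and Scn1a by -0.13 ± 0.21. Scn8a, the pore subunit of the axon initial segment and nodes, differed by -0.02 ± 0.06, and Scn4a, Scn9a and Scn11a lay between -0.02 and 0.08. Among the beta subunits Scn3b differed by -0.68 ± 0.45 and Scn2b by 0.10 ± 0.09.

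Calcium pore subunits were represented by 7 genes, of which 2 were lower and 5 were not called. Cacna1g encodes a T-type channel that opens at low voltage and supports burst firing. Its log2 ratios were 0.08, -0.08 and -0.01 in mild 48 h, -0.66, -1.23 and -0.88 at severe 8 h, -1.40, -1.39 and -0.80 at 15 h, -1.15, -0.85 and -1.44 at 24 h, and -1.45, -1.64 and -1.17 at 48 h. All severe arrays, with the 0 h array at -1.55, lay below mild 48 h. The severe average was lower by 1.17 ± 0.16 (SE) on the log2 scale (2.25-fold lower ratio, limma adjusted p 0.000256), and all 4 times were called. Differences between arrays on the same chip were -1.07, -1.48 and -0.65.

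Cacna1c encodes the L-type pore subunit that links depolarisation to transcription. Its mild 48 h arrays read -0.05, 0.03 and 0.02, and the severe arrays read -0.39, -0.72 and -0.55 at 8 h, -0.78, -0.65 and -0.30 at 15 h, -0.56, -0.20 and -0.65 at 24 h, and -0.74, -0.86 and -0.44 at 48 h. The groups did not overlap, with the nearest severe array at -0.20. The average difference was -0.57 ± 0.12 (SE; limma adjusted p 0.00577), and 8, 15 and 48 h were called while 24 h was not (adjusted p 0.0822). With the chip as a block the average was -0.62 and no longer called (adjusted p 0.0651). Cacna1h, another T-type gene, differed by -0.25 ± 0.12, and Cacna1b, Cacna1e, Cacna1a and Cacna1d, which encode N-, R-, P/Q- and L-type channels, differed by -0.10, -0.04, 0.02 and 0.04, none of them called.

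Cacng3 encodes a gamma subunit that acts as an AMPA receptor partner at excitatory synapses. It read 0.06, -0.11 and 0.05 in mild 48 h, -0.40, -1.05 and -0.25 at severe 8 h, -1.50, -1.46 and -0.70 at 15 h, -0.73, -0.52 and -1.45 at 24 h, and -1.19, -1.61 and -0.45 at 48 h. Each severe array was below mild 48 h, and within every time the arrays lay far apart. The average difference was -0.94 ± 0.26 (SE; limma adjusted p 0.0295), with only 15 h called among the single times. The call was lost with the chip as a block (adjusted p 0.269), under quantile normalization (0.0501) and without any 1 of the 3 mild 48 h arrays (0.0871 to 0.122). None of the other 7 gamma genes, the 4 alpha2-delta genes or the 4 beta genes was called; the lowest of these were Cacna2d1 at -0.73 ± 0.49, Cacnb3 at -0.68 ± 0.43 and Cacng2 at -0.39 ± 0.52, and the highest was Cacnb2 at 0.21 ± 0.12. Cacna2d1 encodes the alpha2-delta subunit bound by gabapentin, and Cacng2 encodes stargazin. Cacna2d2, Cacna2d3, Cacna2d4, Cacnb1, Cacnb4, Cacng1, Cacng4 and Cacng8 lay between -0.08 and 0.19.

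**Figure D2:**
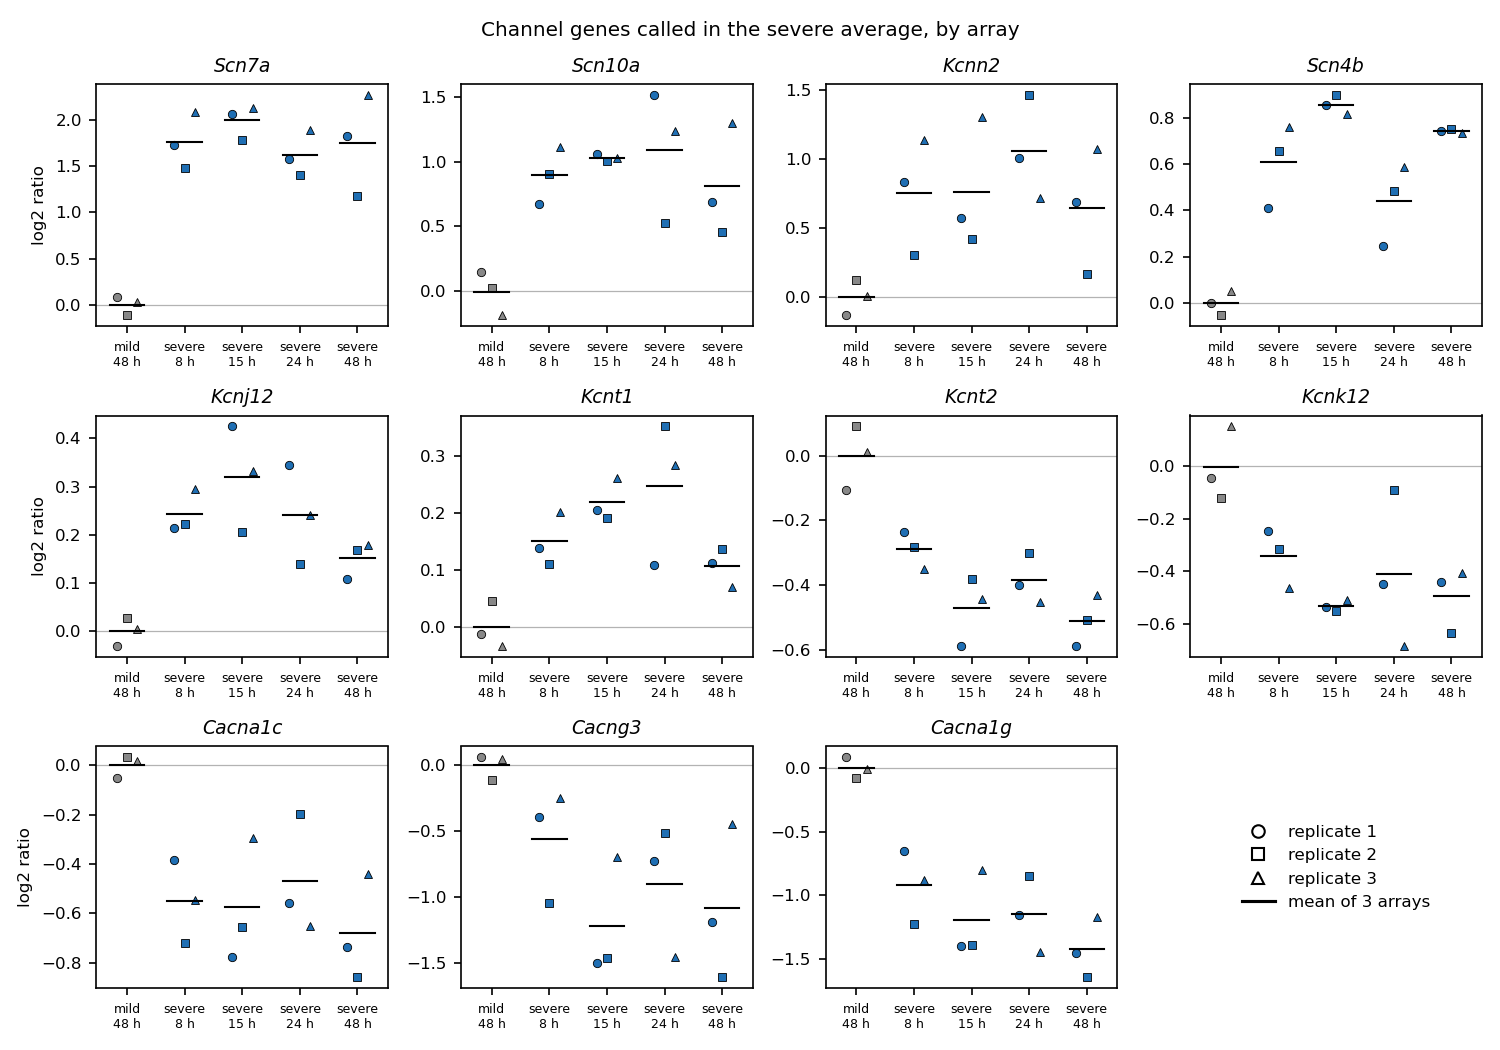
Each panel shows 1 of the 11 channel genes called in the severe average; the y axis is the log2 ratio to the mean of the arrays labelled mild 48 h, symbols are single arrays by replicate number, and bars are means of 3 arrays. Kcnk12 is the only panel in which a severe array, replicate 2 at 24 h with -0.09, lies inside the range of the mild 48 h arrays.

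Of the 11 calcium- and sodium-activated potassium channel genes 2 were higher, 1 was lower and 8 were not called, with a median difference of 0.02. Kcnn2 encodes a small-conductance channel opened by calcium that slows repeated firing. It read -0.14, 0.12 and 0.00 in mild 48 h, 0.83, 0.30 and 1.14 at severe 8 h, 0.57, 0.42 and 1.30 at 15 h, 1.01, 1.46 and 0.71 at 24 h, and 0.68, 0.16 and 1.07 at 48 h. The severe arrays were all above the mild 48 h arrays, the nearest at 0.16 against 0.12. On average it differed by 0.81 ± 0.23 (SE; limma adjusted p 0.034). The call was lost in 8 of 23 alternatives, among them leaving out any 1 mild 48 h array, severe 8 h replicate 1 or severe 48 h replicate 1, and the chip block (adjusted p 0.317), with differences of 0.71 to 0.87 throughout.

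Kcnt2 and Kcnt1 encode related sodium-activated potassium channels and differed in opposite directions. For Kcnt2 the mild 48 h arrays read -0.11, 0.09 and 0.01, and the severe arrays read -0.23, -0.28 and -0.35 at 8 h, -0.59, -0.38 and -0.44 at 15 h, -0.40, -0.30 and -0.45 at 24 h, and -0.59, -0.51 and -0.43 at 48 h. For Kcnt1 the mild 48 h arrays read -0.01, 0.05 and -0.03, and the severe arrays read 0.14, 0.11 and 0.20 at 8 h, 0.21, 0.19 and 0.26 at 15 h, 0.11, 0.35 and 0.28 at 24 h, and 0.11, 0.14 and 0.07 at 48 h. Neither gene overlapped between the groups, but for Kcnt1 the nearest arrays were 0.07 and 0.05. Kcnt2 differed by -0.41 ± 0.06 (SE; limma adjusted p 0.000366) and was called at all 4 times. Kcnt1 differed by 0.18 ± 0.05 (SE; limma adjusted p 0.0254), was called at 15 and 24 h, and lost the average call in 6 of 23 alternatives, among them the chip as a block (0.12, adjusted p 0.433). Among the genes of this class that were not called, Kcnmb4, the BK channel beta subunit of neurons, had the largest difference at 0.60 ± 0.20 (limma adjusted p 0.0778), while Kcnma1, the BK pore, differed by 0.02 ± 0.07 and Kcnn1 by 0.02 ± 0.06.

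Among 14 inward rectifiers only Kcnj12, a strong rectifier that holds the resting potential, was called. It read -0.03, 0.03 and 0.00 in mild 48 h, 0.21, 0.22 and 0.29 at severe 8 h, 0.42, 0.21 and 0.33 at 15 h, 0.34, 0.14 and 0.24 at 24 h, and 0.11, 0.17 and 0.18 at 48 h. The severe arrays were all higher, with the 48 h arrays nearest to mild 48 h. The difference was 0.24 ± 0.05 (SE; limma adjusted p 0.00737), and it was not called when arrays were centred on proteasome and oxidative phosphorylation genes (0.17, adjusted p 0.75) or without mild 48 h replicate 1 (0.22, adjusted p 0.052). Kcnj14 had a larger difference that was not called (0.44 ± 0.16, limma adjusted p 0.0939). Kcnj10 and Kcnj16, the potassium-buffering channels of astrocytes, differed by 0.05 ± 0.05 and 0.08 ± 0.08, Kcnj3, a G-protein-gated channel, by 0.07 ± 0.05, and Kcnj11, the pore of the ATP-sensitive channel, by 0.00 ± 0.05.

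Of the 10 tandem-pore channels, which carry background potassium current, Kcnk12 was lower. Its values were -0.05, -0.12 and 0.15 in mild 48 h, -0.25, -0.32 and -0.46 at severe 8 h, -0.54, -0.55 and -0.51 at 15 h, -0.45, -0.09 and -0.69 at 24 h, and -0.44, -0.64 and -0.41 at 48 h. The 24 h array at -0.09 overlapped with mild 48 h and the other 11 severe arrays did not. On average it differed by -0.44 ± 0.10 (SE; limma adjusted p 0.0102), lost with the chip as a block (0.133), under quantile normalization (0.486) and without mild 48 h replicate 3 (0.0892). Kcnk3, an acid-sensitive channel, was called at 8 h alone (0.30 ± 0.08, limma adjusted p 0.0462), with an average of 0.16 ± 0.07.

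Kcns3 and Kcnq5 had the largest differences among the potassium pore and silent subunits and did not pass the test. Kcns3, a silent subunit that modifies delayed rectifiers, differed by 0.92 ± 0.32 (SE; limma adjusted p 0.0781), with severe arrays from 0.26 to 1.67. Kcnq5, a subunit of the M-current that damps firing, differed by -0.93 ± 0.32 (SE; limma adjusted p 0.0753), with severe arrays from -1.68 to -0.13. For both genes all 12 severe arrays lay beyond the mild 48 h arrays. In all, 12 of 121 members (9.92%) had every severe array beyond mild 48 h, 7 above and 5 below, against 13.2% of all features. The A-type genes Kcnd1, Kcnd2 and Kcnd3 differed by -0.46 ± 0.15, -0.11 ± 0.20 and 0.42 ± 0.23, none of them called. Kcna1, Kcna2 and Kcna4, axonal and A-type pore subunits, lay between -0.01 and 0.07, and the M-current subunit Kcnq3 at -0.01 ± 0.04. Kcnc1 and Kcnc2, subunits of fast-spiking cells, differed by 0.14 ± 0.14 and -0.01 ± 0.20. The accessory subunits ran from Kcnip3 at -0.17 ± 0.08 to Kcnab1 at 0.17 ± 0.11, with Kcnab2 at -0.01 and Kcnip4 at 0.02. Kcnrg differed by 0.06 ± 0.07.

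At the single severe times the number of members called was 8 at 8 h, with 5 higher and 3 lower, 10 at 15 h, with 5 and 5, 8 at 24 h, with 6 and 2, and 7 at 48 h, with 3 and 4. These are 6.61%, 8.26%, 6.61% and 5.79% of the members. Of all features 8.57% were called at 8 h (3.45% higher, 5.12% lower), 10.8% at 15 h (4.42% and 6.37%), 9.17% at 24 h (2.84% and 6.33%) and 11.2% at 48 h (3.43% and 7.74%). Chip 3 held 9 of the 12 severe arrays, all those of 48 h among them, and 0 mild 48 h arrays, while chips 1, 2 and 4 held 1 of each. With the chip as a block the members called were 2, 5, 2 and 4 at the 4 times, against 3.71%, 4.41%, 4.14% and 4.12% of all features, and 6 in the average, against 6.59%. Scn7a, Scn10a, Scn4b, Cacna1g and Kcnt2 were called at all 4 times, Cacna1c and Kcnj12 at 3, Kcnk12 and Kcnt1 at 2, and Cacng3, Kcnk3 and Kcnn2 at 1, while 109 members were called at none. No member was called between severe 48 h and 8 h by limma (0% of all features) or over the severe time course (0% of all features). At an unadjusted p under 0.05 the first gave 8 members and 1718 of 21952 features. The second gave 3 members and 809 features. In the test of a different course after severe and mild injury 0 members were called (0% of all features), with 4 members and 1048 features at unadjusted p. Under every alternative the members called in these 3 tests were also 0.

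Several channel genes varied widely between arrays of the same severe time. The SD within severe times was over 0.5 for 13 members (10.7%) against 3.89% of all features, while an SD over 0.25 was found in 25.6% of members and 26.4% of all features and the median SD was 0.11 for both. Among the 13 were Kcnk1, Kcnh3, Cacng2, Cacna2d1, Scn3b, Cacnb3, Scn2a, Kcnip2, Kcnh1, Kcnq5, Kcns3 and Kcnk2. For Cacnb3, the calcium channel beta subunit, the severe arrays read -0.18, -1.20 and 0.15 at 8 h, -1.42, -1.36 and 0.04 at 15 h, 0.00, -0.02 and -1.32 at 24 h, and -1.14, -1.78 and 0.07 at 48 h. For Scn2a they read 0.67, -0.84 and 0.28 at 8 h, -1.23, -1.26 and 0.15 at 15 h, 0.20, 0.48 and -0.96 at 24 h, and -1.04, -1.21 and 0.14 at 48 h. For Kcnk1, a tandem-pore channel, they read 0.73, -0.46 and 1.39, then -0.57, -0.88 and 1.02, then 1.05, 0.68 and -0.61, and then -0.46, -0.98 and 1.34. The same arrays were high or low for all 3 genes: replicates 1 and 3 at 8 h, 3 at 15 h, 1 and 2 at 24 h and 3 at 48 h were high, and the others were low.

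The median of the 15 neuron markers split the severe arrays in the same way. It was 0.40, -0.66 and 0.29 at 8 h, -1.81, -1.93 and 0.18 at 15 h, 0.09, 0.29 and -1.62 at 24 h, and -1.56, -2.16 and 0.13 at 48 h, and -1.34 in the severe 0 h array. In the mild 48 h arrays it was -0.03, 0.03 and -0.02. Low and high arrays occurred on the same chip: severe 24 h replicates 2 and 3, one high and one low, shared a chip. The part of the neuron markers in these channel values was not tested. The 6 severe arrays with the lowest marker medians were also the 6 lowest for Cacna1g, Cacna1c, Cacng3, Kcnn2 and Kcnq5. Of these genes Kcnn2 was higher in the severe average and Kcnq5 was not called. How many of all features have the same 6 lowest arrays was not counted. For the other called genes fewer of these 6 arrays were among the 6 lowest: 4 for Scn10a, Kcnk12 and Kcnt2, 3 for Scn7a, Kcnj12 and Kcnt1, and 2 for Scn4b.

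**Figure D3:**
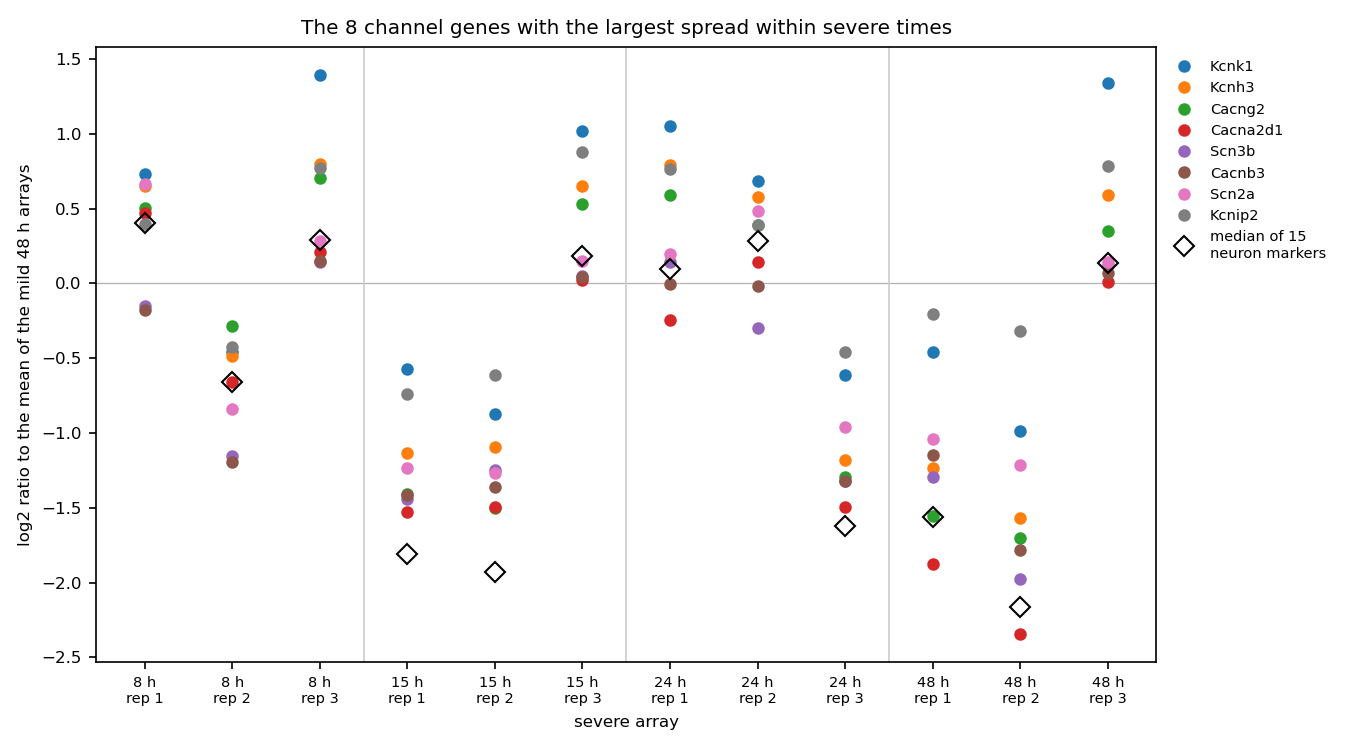
Log2 ratios of the 8 channel genes with the largest SD within severe times, with the median of 15 neuron markers as open diamonds, for each of the 12 severe arrays; vertical lines part the times. At every time the channel genes and the marker median are high or low on the same arrays, as at 48 h, where replicates 1 and 2 have marker medians of -1.56 and -2.16 and replicate 3 has 0.13.

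A list of 42 genes whose products anchor, traffic or modify these channels or are related channels gave 32 measured genes. In the severe average 0 were higher and 2 lower (6.25%), Cntn2 and Gnb5. Of all features 14.4% were called there, 5.73% higher and 8.71% lower. Cntn2 (-0.55 ± 0.05, SE, limma adjusted p 7.98e-06) encodes an axonal adhesion molecule that clusters potassium channels beside nodes. Gnb5 (-0.72 ± 0.21, limma adjusted p 0.0335) encodes a G-protein beta subunit. The list's median difference was -0.06. The pacemaker channel genes Hcn2, Hcn3 and Hcn4 lay between -0.17 and 0.07, and Rest at 0.00 ± 0.05.

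Among the arrays divided by control 1 to 3, 6 members were called between control 4 to 6 and control 1 to 3, all higher, where 11.8% of all features were called, 11.5% higher and 0.31% lower. These were Kcnd3, an A-type pore subunit (0.51 ± 0.16, SE; limma adjusted p 0.0446), Kcnk1 (0.48 ± 0.13; 0.0238), the mechanosensitive Kcnk2 (0.44 ± 0.12; 0.0241), Kcnq5 (0.42 ± 0.11; 0.0249), Cacnb3 (0.38 ± 0.10; 0.0195) and Kcnk3 (0.24 ± 0.07; 0.0347). Control 1 to 3 read 0.08, -0.14 and 0.05 for Kcnd3 and control 4 to 6 read 0.50, 0.55 and 0.47, with no overlap. For Kcnq5 the values were -0.01, 0.02 and 0.00 against 0.61, 0.33 and 0.32, again without overlap. The neuron marker medians were -0.02 to 0.06 in control 1 to 3 and 0.23 to 0.34 in control 4 to 6, with 4 of 15 called higher, and 2 of 5 microglia markers, 3 of 8 fibroblast and mural markers and 1 of 9 astrocyte markers were higher too, 1 of 5 ependymal markers lower and 0 of 13 oligodendrocyte lineage and 0 of 3 endothelial markers called. The part of these lists was not tested.

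None of the 6 calls held under quantile normalization, with the chip as a block or in 1 fit of all 34 arrays. Each gave 0 members, against 0.082%, 0.0273% and 0.0273% of all features. Centring on proteasome and oxidative phosphorylation genes moved the median difference of all features from 0.04 to -0.34 and gave 92 members lower and 0 higher (76% against 63.1% of all features called), with Kcnk3 turned to -0.13. On chip 2, the only one that held arrays of both control sets, control 4 exceeded the mean of control 2 and 3 by 0.60 for Kcnk1 and Kcnq5, 0.55 for Kcnd3, 0.54 for Kcnk2, 0.27 for Cacnb3 and 0.19 for Kcnk3.

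**Figure D4:**
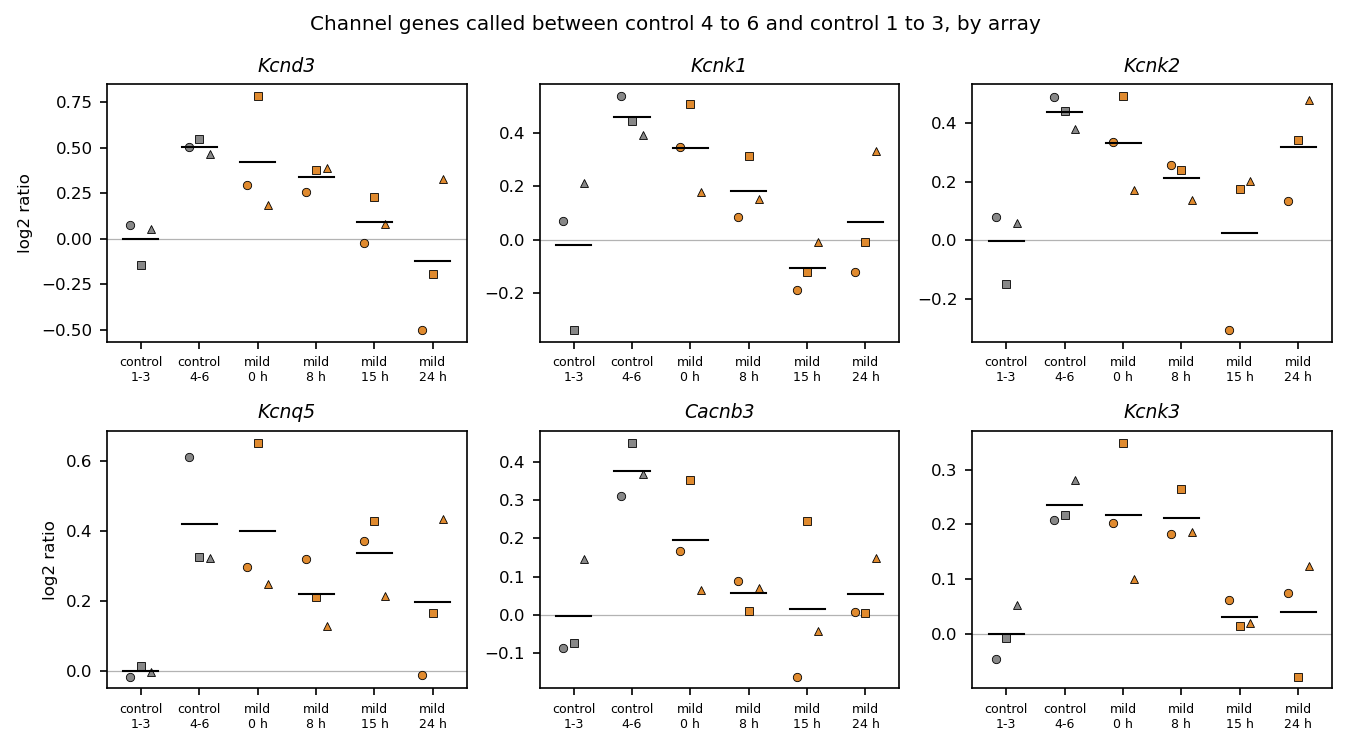
Log2 ratios to the mean of control 1 to 3 for the 6 channel genes called between the control sets; symbols are single arrays, bars are means of 3 arrays, grey is control and orange is mild injury. All 6 panels show control 4 to 6 above control 1 to 3; for Kcnd3 control 4 to 6 stand at 0.50, 0.55 and 0.47.

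Mild injury gave no called member against control 1 to 3 at any time. At 0 h, where 4.76% of all features were called, 13 of 121 members and 4610 of 21952 features passed an unadjusted limma p under 0.05. The smallest limma adjusted p of a member was 0.0518 for Kcnq5 (0.40 ± 0.11, SE, arrays 0.30, 0.65 and 0.25). At 8 h (0.118% of all features called) 9 members and 2400 features passed the unadjusted p, led among members by Cacna1c (0.38 ± 0.12, limma adjusted p 0.203). At 15 h and 24 h (0% of all features called at both) 9 and 7 members did, against 1157 and 1918 features. The smallest limma adjusted p of the members were 0.871 and 0.561. The mild time course gave 0 members (2.06% of all features), with 17 members and 3309 features at an unadjusted p under 0.05. These counts depended on the reference and on single arrays. With control 4 to 6 as the reference 10 members were called at 15 h (2 higher, 8 lower; 8.26% against 10.6% of all features), and leaving out replicate 3 of mild 0 h gave 6 members at that time (4.96% against 10.9%). Centring on proteasome and oxidative phosphorylation genes gave 65 members lower at 0 h (53.7% against 48.9% of all features called), where the median of all features moved to -0.29. The largest mild difference in either direction among the members was 0.42 in size: Kcnd3 at 0 h (0.42 ± 0.16) and Kcnd2, another A-type pore gene, at 8 h (-0.42).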

How the data were processed

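Total RNA of the cultures was labelled with biotin and hybridised to Illumina RatRef-12 bead arrays, per the labels. The values deposited by the authors are a ratio per probe and array. The averages of 5984 triples of arrays were compared with 1: only control 1 to 3 and the arrays labelled mild 48 h averaged 1 within 1e-04 at every probe, and each array's ratio equals its signal over its array median, divided by the mean of 1 of these triples. How signals were extracted and filtered is not given in the sources used here. The deposited signal table has 34 signal columns whose names match no label; they entered no comparison and served only to learn the scale and order of the ratios, and the text columns deposited with them named probes.

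Ratios were taken to log2 here, averaged over probes of a gene and tested with lmFit and eBayes of limma 3.58.1 under R 4.3.3 (Benjamini-Hochberg over all 21952 features, called at adjusted p under 0.05), separately for the 18 and the 16 arrays that share a divisor. The smallest ratio was 0.01, so no pseudocount or filter was needed. In simulated data with 200 changed features the severe average recovered 67% of changes of 0.5 and 90% of changes of 1 on the log2 scale, with 12 false calls. Mild 24 h recovered 85% and 99%, with 6. The simulated noise was normal and independent between features and arrays, and changes were equal at all severe times. In the real arrays many genes varied together and 14.4% of features were called in the severe average. The simulated rates need not hold for them. Arrays of one replicate number were not treated as paired: their deviations correlated at -0.45 to 0.26 among control and mild arrays and at -0.69 to 0.75 among the others, over 0.1 in 6 and 9 of 30 pairs, although the chip of the mild arrays goes with their number. The members, lists and tests were chosen with earlier results of these data known. Named genes were members past the threshold in a comparison (up to 10 in each direction), the highest and lowest of each class in the severe average, and a set of well-known channel genes. The alternatives were other array scaling, chip and replicate blocks, single probes, robust eBayes, 1 fit of all arrays, other references and each array left out. Promoter sequences are RefSeq's, build GRCr8, matched by symbol; the genome build of the arrays is not given in the sources used here. Some member genes and list genes are counted but not reported singly here.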

Additional observations from a re-analysis of the deposited data

Results flagged for a closer look

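Among the 64 named members, 3 had a control array whose gap to the nearest of the other 5, divided by the range of the 6 controls, was above Dixon's critical value for 6 samples. Kcnip2 read -0.20 in control replicate 6 against -0.04 to 0.05 in the others. Kcnj11 read -0.13 in control replicate 2 against 0.00 to 0.07. Kcnma1 read -0.17 in control replicate 4 against -0.02 to 0.02. Chance alone gives such a gap in about 1 of 20 groups, and the labels of control 4 to 6 are uncertain.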

How the results depend on the processing

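Scn7a, Scn4b, Cacna1g and Kcnt2 kept their direction and their call in the severe average under all 23 alternatives. These included the average over 8, 15 and 48 h, added after seeing the data, which called 12 members (share of all features not reported here). Differences of members called in the main fit of 2 groups were followed under each alternative. Of these 754 values 546 kept direction and call, 207 kept direction and lost the call, and 1 reversed: Kcnk3 between the control sets, -0.13 under centring. Members not called in the main fit did not enter this tally. Quantile normalization gave 0 members between the control sets (0.082% of all features). At severe 8, 15, 24 and 48 h it gave 3, 6, 4 and 4 members (2.48%, 4.96%, 3.31% and 3.31%). All features gave 6.55%, 6.51%, 6.45% and 5.6% there. Centring on proteasome and oxidative phosphorylation genes gave 92 between the control sets (63.1% of all features) and 65 at mild 0 h (48.9%). It gave 4 over the mild time course (2.77%) and 4 at severe 8 h (9.96%). The chip as a block gave 0 between the control sets (0.0273% of all features) and 6 in the severe average (6.59%). At the severe times it gave 2, 5, 2 and 4, against 3.71%, 4.41%, 4.14% and 4.12% of all features. Fitting all 34 arrays together gave 0 between the control sets (0.0273% of all features). It gave 14, 16 and 15 at severe 8, 24 and 48 h and 20 in the average. These are 11.6%, 13.2%, 12.4% and 16.5% of members against 13.9%, 15.1%, 17.7% and 20.5% of all features. Control 4 to 6 as the reference gave 10 at mild 15 h (10.6% of all features). With the replicate number as a replicate block the counts were 5, 9, 7 and 7 at the severe times. All features gave 8.45%, 10.7%, 9.08% and 11.1% there. That block gave 12 in the average (share of all features not reported here) and 0 in the mild and time course comparisons. The numbers share no stated source beyond the chips, so the block result is only a check. Leaving out 1 array gave 0 to 8 members between the control sets (0.565% to 15.6% of all features), with 0 without control 2, 5 or 6. At mild 0 h it gave 0 to 6 (0.0501% to 10.9%), the 6 without mild 0 h replicate 3. Over the mild time course it gave 0 to 1 (0.661% to 3.69%). The counts were 3 to 6 at severe 8 h (5.31% to 6.92%), 5 to 9 at 15 h (7.17% to 9.4%) and at 24 h (5.96% to 9.07%). At 48 h they were 5 to 13 (7.83% to 14.9%), the 13 without replicate 3. In the average they were 7 to 14 (7 without mild 48 h replicate 1), with the shares of all features not reported here. The causes were not tested. The severe comparisons rest on 1 reference group of 3 arrays whose label is uncertain, and signal over background is unknown.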

Other observations

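The arrays numbered 2 and 3 at severe 24 h stood opposite to those of the same number at 8, 15 and 48 h. For Kcnh3, an Elk-type potassium channel of forebrain neurons, replicate 2 read -0.48, -1.09 and -1.57 at 8, 15 and 48 h but 0.58 at 24 h, and replicate 3 read 0.80, 0.65 and 0.59 but -1.18 at 24 h. Kcnip2, a partner of A-type channels, read -0.43, -0.61 and -0.32 for replicate 2 at 8, 15 and 48 h and 0.39 at 24 h.

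The single severe 0 h array, which entered no test, read 1.09 for Kcns3, 0.67 for Kcnn2, 0.39 for Kcnj12, -0.71 for Cacna1c, -1.08 for Cacng3 and -0.45 for Kcnt2. Each of these lies within the range of the 12 later severe arrays.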
